A study of Homo sapiens with 9 samples.

Results

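The genes followed here encode subunits of the mitochondrial respiratory chain and its mobile carrier cytochrome c, read on 9 expression arrays of the human myeloid cell line U937. The list held 44 genes, of which 24 belong to complex I, 4 to complex II, 6 to complex III, 8 to complex IV and 1 to complex V, with cytochrome c beside them. Genes were matched to probes by Entrez identifier under their current or older symbol, and a gene was tested if it had a probe detected at p under 0.01 on 3 or more arrays. This left 42 of the 44 genes, among 8611 genes tested in the whole series. NDUFA4, which is now filed under the symbol COXFA4, was counted with complex IV, where its protein is found. No probe was named for SDHB, the iron-sulfur subunit of complex II. The single probe of NDUFS6, an accessory subunit of complex I, was detected on 0 arrays, with intensities between 85.8 and 106.3. Of the 50 probes named for the list, 48 were detected on all 9 arrays.

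The respiratory chain passes electrons from NADH (complex I) and succinate (complex II) through ubiquinone to complex III, from there by cytochrome c to complex IV, and finally to oxygen, while protons are moved across the inner mitochondrial membrane and drive ATP synthesis by complex V. Each complex except complex II combines subunits encoded in mitochondrial DNA with many encoded in the nucleus, so that the genes described here, all nuclear, have to be expressed together with the mitochondrial genome. Complex II is also an enzyme of the citric acid cycle, and cytochrome c, once released from mitochondria, activates caspases.

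U937 cells, which derive from a histiocytic lymphoma, received an H1 lentiviral vector that expressed an shRNA against the chromatin protein DEK (shDEK14 or shDEK17), or the same vector without a hairpin (shEMPTY). All groups, controls included, had thus been transduced, were sorted for GFP after 48 h and were grown for 4 further days before total RNA was taken. Each group had 3 arrays. The labels number them as replicates and experiments without stating whether they were separate transductions, so the p-values measure the spread between these arrays, part of which may be technical.

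The DEK signal contradicted the labels of 4 libraries (shDEK14 replicates 1 and 3, replicate 2 of shDEK17 and replicate 2 of shEMPTY), and groups are therefore called by the labels of their libraries. DEK intensity was 2360, 359.4 and 2826 in the libraries labelled shDEK14 replicates 1 to 3, 431.6, 1890 and 532.0 in those labelled shDEK17, and 2510, 293.9 and 2580 in those labelled shEMPTY. It was therefore below 1000 in 4 libraries, 1 of them labelled shEMPTY, and above 1000 in 5, of which 3 carried an shRNA label. Mean intensity per array ranged from 362.2 to 457.2, between 12729 and 14152 probes were detected, and the number of arrays limits the precision of every value here. As a check on the cell line, 13 of 14 myeloid markers were tested genes, against 0 of 6 erythroid and 0 of 5 epithelial markers. Of the lymphoid markers, NKG7, CD79A and CD79B were tested and 9 others were not. These 3 had log2 fold changes of -0.41, -0.28 and -0.37 for shRNA labels over shEMPTY labels (limma adjusted p of 0.937, 0.973 and 0.937), and their part in the results on the subunits was not tested.

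To determine whether the subunits differed with the labels, the mean of both hairpin labels was compared with the shEMPTY label in a limma fit over all genes. Of the 42 subunits, 29 had a log2 fold change below 0, as did 51.9% of all genes, and the changes lay between -0.32 for CYCS, which encodes cytochrome c, and 0.18 for NDUFB6, an accessory subunit of the membrane arm of complex I. None of the 42 passed the adjusted threshold of 0.05 (lowest limma adjusted p of 0.937), as did 0% of all genes, and 0 of them were lower at an unadjusted p under 0.05, where 2.54% of all genes were. Their median log2 fold change was -0.083, against -0.0099 for all genes. With median scaling in place of quantile normalization, 21 of the 42 were lower and the median was -0.0085. Leaving out a single library moved the median between -0.11 and -0.044, and it was -0.046, -0.052 and -0.044 without the libraries labelled shEMPTY replicate 1, shEMPTY replicate 3 and shDEK17 replicate 3. Without the 4 libraries contradicted by DEK, 25 of 42 were lower and the median was -0.043.

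**Figure D1:**
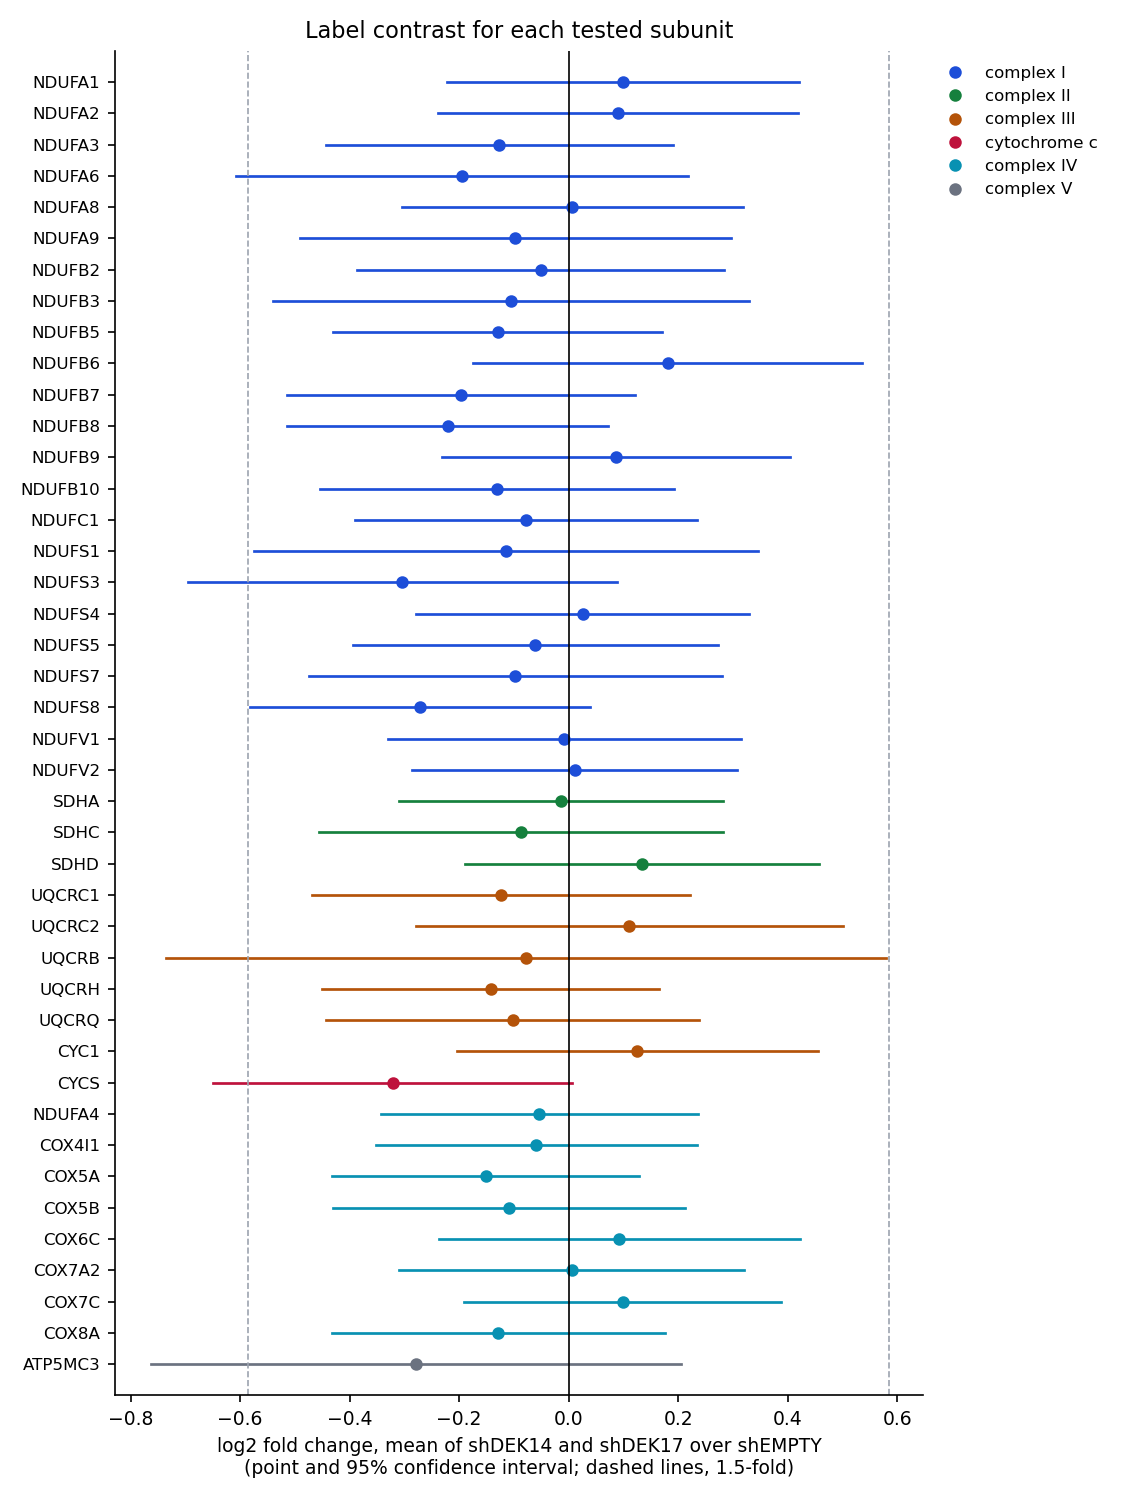
Log2 fold change of each tested subunit (points) with its 95% confidence interval (bars) for the libraries labelled shDEK14 and shDEK17, averaged, over those labelled shEMPTY, with complexes from I at the top to V at the bottom. Points lie between -0.32 and 0.18, every interval crosses 0, and 37 of 42 intervals stay within the dashed lines at 1.5-fold in either direction.

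The subunits were measured with less spread than most genes, so that changes of moderate size can be bounded. Their median standard deviation within a label was 0.15 on the log2 scale, against 0.26 for all genes. This was not particular to the list, as it was also 0.15 for cytosolic ribosomal proteins and 0.16 for other complex V subunits. Subunits outside the list had 0.19 in complex I, 0.38 in complex III and 0.24 in complex IV. The 95% confidence interval of the change stayed within 1.5-fold in either direction for 37 of the 42 subunits and for 57.3% of all genes. It stayed within 2-fold for all 42 and for 95.9% of all genes. The exceptions at 1.5-fold were NDUFA6, NDUFS3, UQCRB, CYCS and ATP5MC3. The probes of the subunits were also brighter, with a median normalized value of 11.68 (log2) against 8.08 for all genes, and the part of brightness in the narrow spread was not tested.

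In complex I, 16 of 23 tested subunits had a log2 fold change below 0, with a median of -0.097. NDUFS8, a core subunit that carries iron-sulfur clusters close to the ubiquinone site, and NDUFS3, a core subunit of the arm that reaches into the matrix, had the lowest p-values. NDUFS8 was 12.08, 11.99 and 11.95 (log2) in the libraries labelled shDEK14, 12.09, 12.13 and 12.18 in those labelled shDEK17, against 12.46, 12.47 and 12.09 in those labelled shEMPTY. The libraries labelled shEMPTY replicates 1 and 2 lay above all others, while replicate 3 lay among the shRNA labels. NDUFS8 had a log2 fold change of -0.27 ± 0.14 (SE, limma adjusted p of 0.952).

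NDUFB8, an accessory subunit of the membrane arm that is widely used as a marker of assembled complex I, was the only complex I subunit whose 6 shRNA-labelled libraries all lay below the 3 labelled shEMPTY. Its values were 11.89, 12.06 and 11.97 (log2) in the libraries labelled shDEK14, 12.06, 12.08 and 12.10 in those labelled shDEK17, against 12.41, 12.15 and 12.17 in those labelled shEMPTY. The groups did not overlap, but the gap between 12.10 and 12.15 was small, and the library labelled shEMPTY replicate 1 stood above the other 8. The log2 fold change was -0.22 ± 0.13 (SE, limma adjusted p of 0.960) and -0.14 without that library.

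The largest ranges over the 9 libraries in complex I belonged to NDUFS1, the core subunit of the matrix arm that holds several iron-sulfur clusters, and NDUFA6, an accessory subunit with an LYR motif. NDUFS1 was 6.48, 6.76 and 6.32 (log2) in the libraries labelled shDEK14, 5.99, 6.68 and 6.77 in those labelled shDEK17 and 6.47, 6.39 and 6.98 in those labelled shEMPTY. NDUFA6 was 8.89, 9.21 and 8.36 in the libraries labelled shDEK14, 8.76, 8.55 and 8.41 in those labelled shDEK17 and 8.79, 8.83 and 9.05 in those labelled shEMPTY. For NDUFS1 the ranges of the 3 labels overlapped. For NDUFA6 the 3 libraries labelled shDEK17 all lay below the 3 labelled shEMPTY, while those labelled shDEK14 held both the lowest and the highest value. The changes were -0.12 ± 0.21 and -0.19 ± 0.19 (log2, SE). At the other end, NDUFB5, an accessory subunit of the membrane arm, ranged over 0.32 (log2), between 12.23 and 12.55, with a change of -0.13 ± 0.14 (SE).

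NDUFB6 had the highest fold change of all subunits, 0.18 ± 0.16 (log2, SE, limma adjusted p of 0.966). It was 10.34, 10.31 and 10.40 (log2) in the libraries labelled shDEK14, 10.09, 10.48 and 9.99 in those labelled shDEK17, against 10.36, 9.93 and 9.98 in those labelled shEMPTY. The libraries labelled shDEK14 lay close together at the upper end, and those of the other labels spread over the whole range. Without the library labelled shEMPTY replicate 1 the change was 0.32, without shDEK17 replicate 2 it was 0.11, and without the 4 libraries contradicted by DEK it was 0.0083. The remaining 16 subunits of complex I had changes between -0.20 for NDUFB7 and 0.099 for NDUFA1, both accessory.

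In complex II, SDHA, the flavoprotein that oxidizes succinate, had the least variable signal of its complex. It was 9.43, 9.37 and 9.36 (log2) in the libraries labelled shDEK14, 9.56, 9.36 and 9.41 in those labelled shDEK17 and 9.57, 9.43 and 9.29 in those labelled shEMPTY, a change of -0.014 ± 0.14 (SE). SDHC and SDHD anchor the enzyme in the membrane and hold its heme. SDHC was 8.30, 8.42 and 8.40 in the libraries labelled shDEK14, 8.84, 8.25 and 8.15 in those labelled shDEK17 and 8.42, 8.45 and 8.57 in those labelled shEMPTY. SDHD was 11.74, 11.45 and 11.26 in the libraries labelled shDEK14, 11.32, 11.33 and 11.40 in those labelled shDEK17 and 11.15, 11.33 and 11.37 in those labelled shEMPTY. Ranges overlapped for all 3 genes, and the outermost values, such as 8.84 for SDHC in the library labelled shDEK17 replicate 1, came from single libraries. SDHC changed by -0.087 ± 0.17 and SDHD by 0.13 ± 0.15 (log2, SE). The median of the complex was -0.014, and it lay on either side of 0 depending on the library left out.

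Complex III had 4 of 6 subunits below 0 and a median of -0.090 (log2). UQCRH, the hinge protein at the docking site of cytochrome c, had the lowest p in the complex, with 13.31, 13.51 and 13.57 (log2) in the libraries labelled shDEK14, 13.21, 13.52 and 13.33 in those labelled shDEK17, against 13.51, 13.64 and 13.51 in those labelled shEMPTY. CYC1, the cytochrome c1 that hands electrons to cytochrome c, was 11.10, 11.20 and 11.11 in the libraries labelled shDEK14, 11.51, 11.04 and 11.35 in those labelled shDEK17, against 11.19, 10.92 and 11.16 in those labelled shEMPTY. UQCRC2, a core subunit related to mitochondrial processing peptidases, was 10.69, 10.56 and 10.50 in the libraries labelled shDEK14, 10.82, 10.08 and 10.18 in those labelled shDEK17, against 10.26, 10.52 and 10.30 in those labelled shEMPTY. The labels overlapped for each. The library labelled shDEK17 replicate 1 held the highest CYC1 and UQCRC2 values and the lowest UQCRH value. The changes were -0.14 ± 0.14, 0.13 ± 0.15 and 0.11 ± 0.18 (log2, SE), and UQCRC2 was at -0.0030 without that library.

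Cytochrome c gave the lowest p of all 42 subunits. CYCS was 7.14, 6.73 and 6.91 (log2) in the libraries labelled shDEK14, 7.08, 7.13 and 7.30 in those labelled shDEK17, against 7.39, 7.21 and 7.52 in those labelled shEMPTY. All 3 libraries labelled shDEK14 lay below all 3 labelled shEMPTY, whereas shDEK17 replicate 3 lay above shEMPTY replicate 2. The average change was -0.32 ± 0.15 (log2, SE, limma adjusted p of 0.937). For shDEK14 alone the change was -0.44 (unadjusted limma p of 0.025, adjusted 0.954), and CYCS was the only one of the 42 with an unadjusted p under 0.05 in that contrast, where 2.38% of all genes were lower at that level. The average change was -0.20 with no background correction and -0.49 without the 4 libraries contradicted by DEK. RefSeq annotates 45 pseudogenes under the symbol of CYCS, more than for any other gene of the list, and which of these transcripts the probe can bind was not tested.

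The 8 listed subunits of complex IV were the most uniform set of the list. They had a median range of 0.34 (log2) over the 9 libraries, against 0.79 for all genes, and all 8 confidence intervals stayed within 1.5-fold. The 4 other subunits of complex IV that were tested had a median range of 0.72. The 8 were also bright, with a median level of 13.37 against 12.09 for the other 4. COX5A, an accessory subunit on the matrix side of the enzyme, was the other subunit whose labels separated completely. It was 12.83, 12.98 and 12.84 (log2) in the libraries labelled shDEK14, 13.02, 13.02 and 13.06 in those labelled shDEK17, against 13.11, 13.14 and 13.08 in those labelled shEMPTY. The gap between the groups was again narrow, and those labelled shDEK14 were the lowest. The change was -0.15 ± 0.13 (SE, limma adjusted p of 0.964), and was -0.026 with median scaling and -0.086 without the 4 libraries contradicted by DEK. With NDUFB8 this made 2 of 42 subunits with all shRNA labels below all shEMPTY labels and 0 with all above, where 1.59% and 1.5% of all genes separated in these directions.

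COX5B, the zinc-binding subunit of complex IV, was 12.76, 12.90 and 12.88 (log2) in the libraries labelled shDEK14, 12.97, 13.19 and 13.14 in those labelled shDEK17, against 13.28, 13.13 and 12.84 in those labelled shEMPTY. The lowest value came from the library labelled shDEK14 replicate 1, the library labelled shEMPTY replicate 3 lay below the other 2 labelled shDEK14, and the difference of shDEK14 from shDEK17 was -0.26 (log2, limma adjusted p of 0.999). COX8A, a small transmembrane subunit, changed by -0.13 ± 0.14 (SE), COX7A2 by 0.0053 ± 0.14 and NDUFA4, which was long assigned to complex I, by -0.054 ± 0.13 (log2). COX7A2 ranged between 13.27 and 13.71 and NDUFA4 only between 13.25 and 13.52. Of the 8 subunits 5 were below 0, with a median of -0.056 (log2), which was 0.054 with median scaling.

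For complex V, ATP5MC3 encodes a subunit of the proton-driven c ring. It was 7.62, 7.51 and 7.46 (log2) in the libraries labelled shDEK14, 6.61, 7.68 and 7.49 in those labelled shDEK17, against 7.75, 7.42 and 7.85 in those labelled shEMPTY. The library labelled shDEK17 replicate 1 stood far below the other 8, which lay between 7.42 and 7.85. The change was -0.28 ± 0.22 (log2, SE, limma adjusted p of 0.960), and was -0.12 without that library and -0.52 without the 4 libraries contradicted by DEK. The other 18 nuclear subunits of complex V that were tested had a median of -0.031, with 11 below 0. The lowest p among them belonged to ATP5F1C, the central stalk subunit gamma (-0.20 ± 0.14, SE), and ATP5F1E, the small stalk subunit epsilon (0.19 ± 0.15).

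Each hairpin was also set against shEMPTY alone. Of the 42 subunits, 29 were below 0 for the libraries labelled shDEK14 and 27 for those labelled shDEK17, with medians of -0.079 and -0.072, against -0.0032 and -0.017 for all genes. These contrasts share the libraries labelled shEMPTY. None of the subunits passed in either contrast or in the direct comparison of shDEK14 with shDEK17, nor did any gene (0% in each, lowest limma adjusted p of 0.954, 0.999 and 0.999). For shDEK17 and between the hairpins, 0 subunits reached even the unadjusted level of 0.05. The median difference between hairpins was -0.0096 over the subunits, with values from -0.26 for COX5B to 0.29 for UQCRB.

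To see whether the libraries themselves differed, each subunit was expressed as its deviation from its own mean over the 9 libraries. The median over the 42 subunits was -0.048, 0.045 and -0.067 (log2) in the libraries labelled shDEK14 replicates 1 to 3, 0.010, -0.022 and -0.0031 in those labelled shDEK17, and 0.12, 0.021 and 0.038 in those labelled shEMPTY. The library labelled shEMPTY replicate 1 thus stood highest and shDEK14 replicate 3 lowest. In that library labelled shEMPTY replicate 1, 28 of 42 subunits were above their own mean and 13 reached their highest value, which is 31.0% against 13.0% of all genes. In the library labelled shDEK14 replicate 3, 10 of 42 were above their mean.

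The listed subunits of the complexes did not share 1 order of libraries. Complex I had its lowest median in the library labelled shDEK14 replicate 3 (-0.14), where 7 of its 23 subunits had their lowest value (30.4%, against 12.7% of all genes), and its highest in shEMPTY replicate 1 (0.16). Complex III was lowest in the library labelled shDEK17 replicate 2 (-0.21) and highest in shDEK17 replicate 1 (0.25), where 3 of its 6 subunits had their highest value, against 13.7% of all genes. Complex IV was lowest in the library labelled shDEK14 replicate 1 (-0.13), where 4 of its 8 subunits had their lowest value, against 10.9% of all genes, and it stayed between -0.034 and 0.034 in the other 8. Subunits outside the list did not repeat these orders for complexes I, III and IV. The 2 others of complex III were at -0.38 in shDEK17 replicate 1 and 0.055 in shDEK17 replicate 2. The 4 others of complex IV were at 0.079 in shDEK14 replicate 1. The 11 others of complex I were at -0.043 in shDEK14 replicate 3 and 0.12 in shEMPTY replicate 1. Their lowest median was in shEMPTY replicate 2 (-0.086) and their highest in shDEK17 replicate 3 (0.18). For comparison, the median of 26 cytosolic ribosomal proteins stayed between -0.028 and 0.042 in all 9 libraries.

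**Figure D2:**
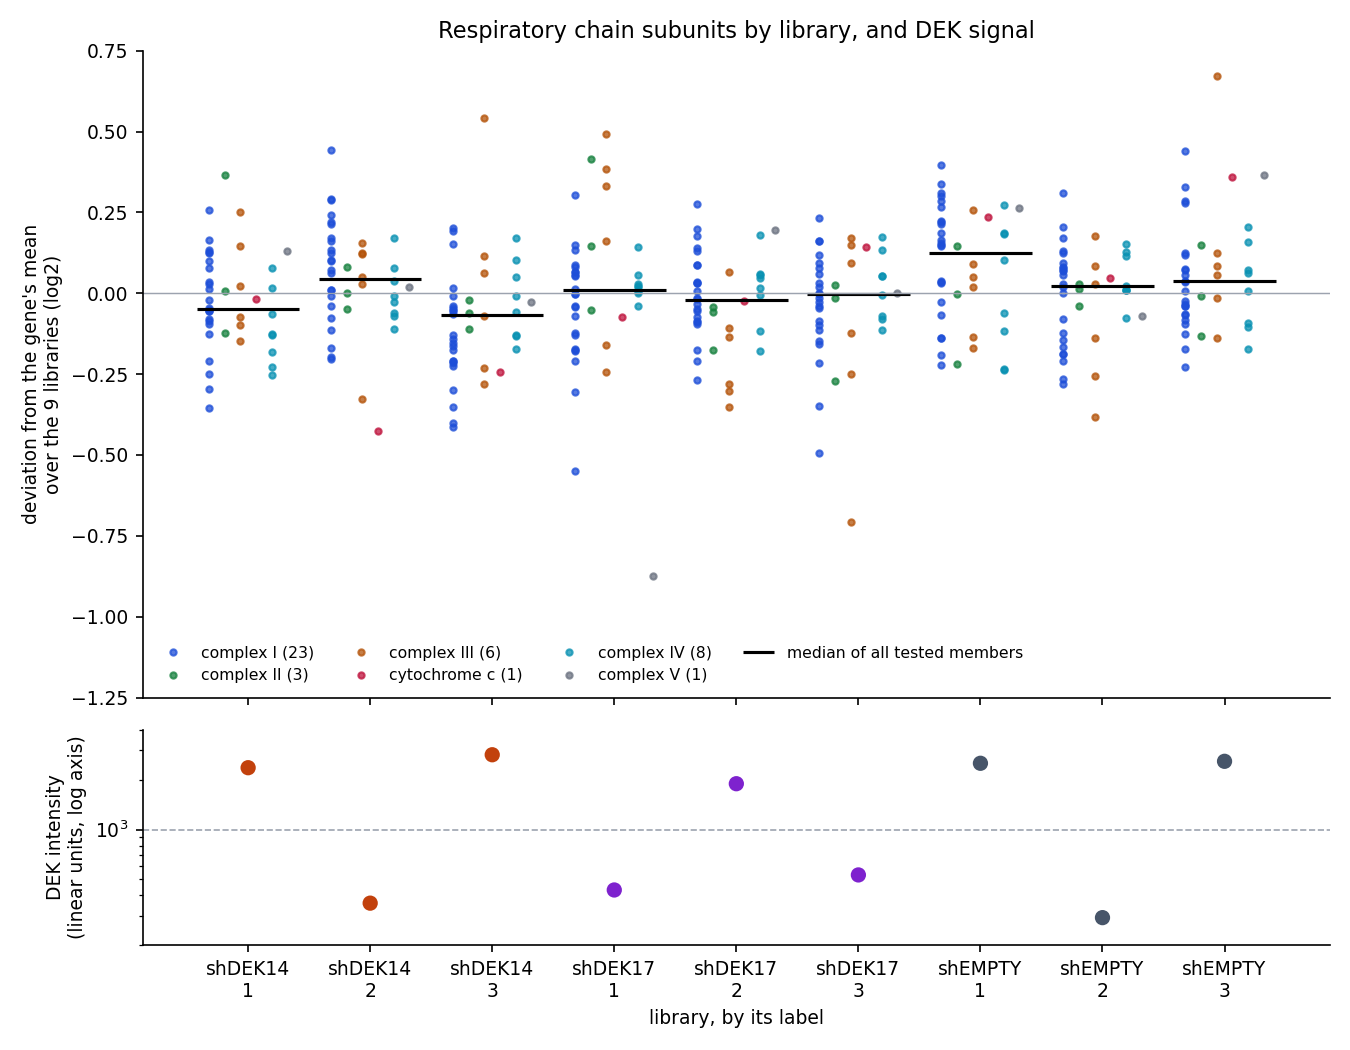
Upper panel, deviation of each tested subunit from its own mean over the 9 libraries (log2, points coloured by complex) with the median over all 42 subunits as a black bar. Lower panel, deposited DEK intensity on a log axis with a dashed line at 1000. The medians lie between -0.067 (shDEK14 replicate 3) and 0.12 (shEMPTY replicate 1), both in libraries with DEK above 1000, and those of the 4 libraries with DEK below 1000 lie between -0.0031 and 0.045.

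Other gene groups deviated further in single libraries than the subunits did. Interferon-stimulated genes had a median deviation of 2.92 in shEMPTY replicate 2, against values from -0.68 to -0.17 in the other 8, whereas the subunits were at 0.021 there. Genes of ribosome biogenesis had medians of -0.40 in shDEK14 replicate 3 and -0.58 in shDEK17 replicate 1, and the subunits were at -0.067, their lowest median, in shDEK14 replicate 3 and at 0.010 in shDEK17 replicate 1.

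The libraries were then read by DEK signal. The median deviation of the 42 subunits was 0.045 in the library labelled shDEK14 replicate 2, 0.010 and -0.0031 in shDEK17 replicates 1 and 3, and 0.021 in shEMPTY replicate 2, the 4 libraries with DEK below 1000. It lay between -0.067 and 0.12 in the 5 libraries with DEK above 1000, a range that includes all 4. For 0 of 42 subunits were the 4 libraries with low DEK all below or all above the 5 with high DEK, where 1.18% and 1.15% of all genes separated in these directions. These sets of libraries were defined by a measured signal and are not groups of the study, so only ranges are given.

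Within the 6 shRNA labels, DEK divided 3 libraries with high signal (shDEK14 replicates 1 and 3 and shDEK17 replicate 2) from 3 with low signal. For 5 subunits (NDUFA9, NDUFS3, NDUFS7, UQCRC1 and CYC1) the 3 with high DEK all lay below the 3 with low DEK, and for NDUFB6 they all lay above, where 10.5% and 8.2% of all genes did so. Set against these shares, 5 of 42 subunits was close to the share of all genes that lay below, and 1 of 42 was under the share that lay above. In NDUFS3 and UQCRC1 the 3 libraries also lay below the 3 labelled shEMPTY, as did 5.01% of all genes. These 2 of 42 subunits were again close to the share of all genes.

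NDUFS3 was 11.42, 11.30 and 11.44 (log2) in the shRNA-labelled libraries with high DEK, against 11.95, 11.78 and 11.77 in those with low DEK and 12.11, 11.88 and 11.75 in those labelled shEMPTY. The 3 values in the libraries with high DEK lay below all 6 others. By label NDUFS3 changed by -0.30 ± 0.18 (log2, SE, limma adjusted p of 0.960), and by -0.065 when the 4 libraries whose DEK signal contradicts their label were left out. UQCRC1, a core subunit of complex III, was 10.49, 10.31 and 10.31 in the shRNA-labelled libraries with high DEK, against 10.75, 10.75 and 10.68 in those with low DEK and 10.68, 10.62 and 10.72 in those labelled shEMPTY. Its remaining 6 values fell between 10.62 and 10.75. By label it changed by -0.12 ± 0.16 (SE, limma adjusted p of 0.966), and by 0.033 without the same 4 libraries. Both genes, like NDUFA9, NDUFS7 and CYC1, were singled out after their values were seen.

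Some myeloid markers were divided in the same way. Of 13 tested, 5 (CTSG, MPO, PRTN3, ELANE and CD4) were lower in all 3 shRNA-labelled libraries with high DEK than in the 3 with low DEK. Of all genes 10.5% were. ITGB2 was higher in all 3, as were 8.2% of all genes, and the other 7 overlapped. PRTN3 was detected on only 4 arrays and ELANE on 3. In the shRNA-labelled libraries with high DEK, PRTN3 (4.72 to 4.76, log2) and ELANE (4.86 to 5.33) lay below the lowest detected values (5.70 to 5.84). These 2 genes thus passed the filter only through other libraries, and their low values there are background. CD4 was detected on 7 arrays. Its values in shDEK14 replicate 1 (5.17) and shDEK17 replicate 2 (5.75) also lay below the lowest detected values there (5.70 and 5.84). The median deviation of the 13 was -0.012, -0.20 and -0.17 in the shRNA-labelled libraries with high DEK, against 0.15, 0.088 and 0.24 in those with low DEK and 0.050, 0.28 and -0.095 in those labelled shEMPTY. The part of these markers in the values of NDUFS3 and UQCRC1 was not tested.

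**Figure D3:**
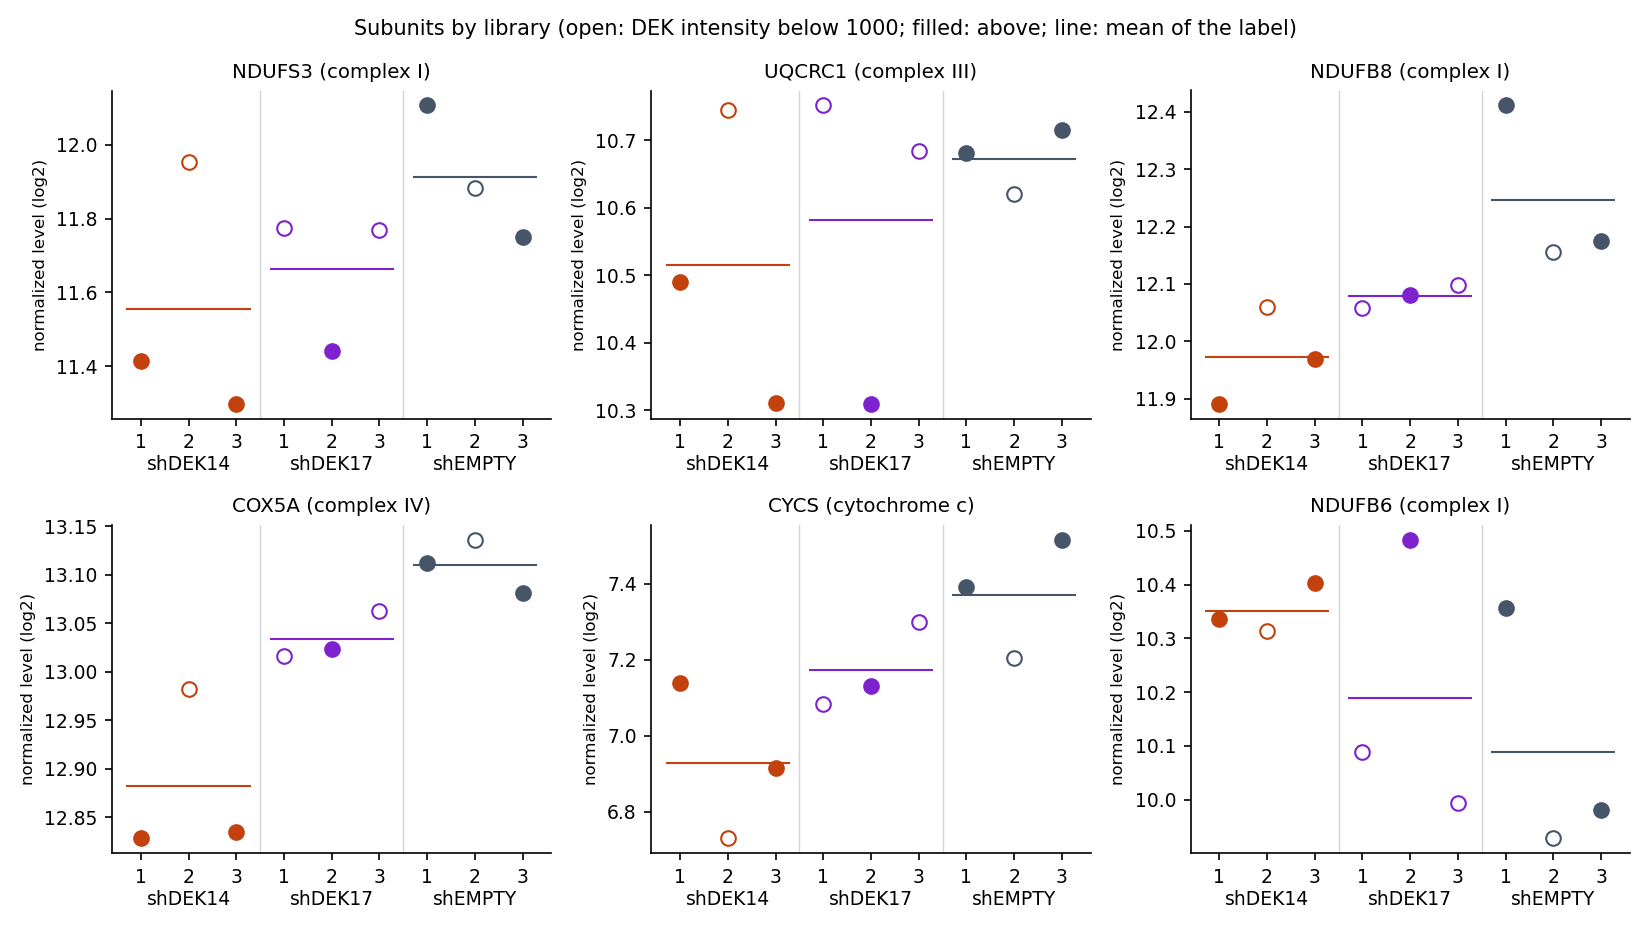
Normalized level (log2) of 6 subunits in each library, by label and replicate number, with open points for DEK intensity below 1000, filled points for DEK above 1000 and a line at the mean of each label. NDUFS3 and UQCRC1 show 3 low filled points among the shRNA labels, NDUFB8 and COX5A separate narrowly by label, CYCS is lowest in shDEK14, and NDUFB6 is high in shDEK14.

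Promoter sequences are shown for the pair of genes that were low in the same 3 libraries, NDUFS3 and UQCRC1, and for CYCS, which had the lowest p by label. They are RefSeq windows of assembly GRCh38.p14 around the transcription start, written 5′ to 3′ on the strand of the gene. NDUFS3 lies at chr11:47578824-47579123 on the plus strand, UQCRC1 at chr3:48609597-48609896 on the minus strand and CYCS at chr7:25125211-25125510 on the minus strand. Capitals mark matches to motifs of regulators known for respiratory genes, which were GCATGCGC for NRF1, CCGGAAGT for GABPA (the DNA-binding subunit of NRF2) and AAGATGGCG for YY1, searched on both strands.
NDUFS3: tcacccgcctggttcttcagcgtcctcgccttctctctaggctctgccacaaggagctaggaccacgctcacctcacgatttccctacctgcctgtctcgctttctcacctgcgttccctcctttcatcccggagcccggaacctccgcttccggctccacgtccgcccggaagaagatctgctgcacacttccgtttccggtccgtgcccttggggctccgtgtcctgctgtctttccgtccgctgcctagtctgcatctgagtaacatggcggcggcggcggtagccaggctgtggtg
UQCRC1: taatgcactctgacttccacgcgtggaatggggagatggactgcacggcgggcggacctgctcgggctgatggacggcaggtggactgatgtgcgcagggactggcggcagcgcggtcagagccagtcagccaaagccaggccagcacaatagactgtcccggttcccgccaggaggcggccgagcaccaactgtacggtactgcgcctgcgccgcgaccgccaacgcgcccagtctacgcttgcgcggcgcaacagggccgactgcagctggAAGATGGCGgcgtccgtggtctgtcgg
CYCS: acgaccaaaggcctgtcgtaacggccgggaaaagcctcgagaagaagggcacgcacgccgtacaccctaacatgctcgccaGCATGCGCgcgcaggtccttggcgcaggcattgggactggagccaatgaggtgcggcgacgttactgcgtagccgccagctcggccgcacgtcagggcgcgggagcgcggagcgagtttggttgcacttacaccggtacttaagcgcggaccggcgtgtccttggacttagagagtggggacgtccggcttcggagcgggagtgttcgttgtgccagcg
CYCS holds the NRF1 letters from position -169 relative to the start, UQCRC1 holds the YY1 letters from position 23, and NDUFS3 holds none of the 3 motifs, which says only that these letters are not in this window. No motifs overlapped in the windows shown. Promoter windows were matched for 34 of the 42 tested subunits and for 7104 tested genes. The NRF1 letters were found in 6 of the 34 windows (17.6%), against 6.31% of all windows, the GABPA letters in 6 (17.6%), against 9.97%, and the YY1 letters in 5 (14.7%), against 4.43%. SDHD and COX5B held both the NRF1 and the GABPA letters, and NDUFA6 and NDUFS7 both the NRF1 and the YY1 letters. These matches are a description of sequence, and none of these subunits passed the test by label.

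For 6 subunits more than 1 probe was kept, which allowed the array to be compared with itself. NDUFB3, an accessory subunit of the membrane arm of complex I, had probes that deviated in the same direction in 8 of 9 libraries. Its brighter probe was 12.34, 11.88 and 12.02 (log2) in the libraries labelled shDEK14, 12.39, 12.07 and 11.59 in those labelled shDEK17 and 11.89, 12.21 and 12.37 in those labelled shEMPTY. The other probe was 12.04, 11.81 and 12.06 in the libraries labelled shDEK14, 12.04, 11.74 and 11.20 in those labelled shDEK17 and 11.42, 11.93 and 12.38 in those labelled shEMPTY. Both probes were low in the libraries labelled shDEK17 replicate 3 and shEMPTY replicate 1 and high in shEMPTY replicate 3. Neither followed the labels, with changes of -0.11 ± 0.20 and -0.094 ± 0.23 (log2, SE).

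In the other 5 subunits the probes deviated in the same direction in 2 to 6 of 9 libraries. UQCRB, a ubiquinone-binding accessory subunit of complex III, had the widest range of all 42 subunits, 1.38 (log2) or 2.60-fold, at its brightest probe. That probe was 11.27, 10.79 and 11.66 in the libraries labelled shDEK14, 11.61, 10.82 and 10.41 in those labelled shDEK17 and 10.99, 10.74 and 11.79 in those labelled shEMPTY. Its 2 dimmer probes ranged over 1.01 and 1.18, the dimmest of them detected on 4 arrays, and each pair of the 3 probes deviated in the same direction in 5 of 9 libraries. The library labelled shDEK17 replicate 3, the lowest at the brightest probe, was above the mean of both other probes.

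The choice of probe also set the sign or size of the label contrast for some of these genes. UQCRH had a change of -0.14 ± 0.14 (log2, SE) at its brightest probe and of 0.27 ± 0.16 at the other, which deviated in the same direction in only 2 of 9 libraries. SDHA had -0.014 ± 0.14 at its brightest probe and -0.27 ± 0.16 at the other. NDUFB6 had 0.18 ± 0.16 and 0.054 ± 0.17, and SDHC had -0.087 ± 0.17 and -0.23 ± 0.23. RefSeq annotates at least 1 pseudogene under the symbol of 27 of the 44 listed genes, and UQCRHL, an intron-less copy of UQCRH, is itself among the tested genes (0.078 ± 0.13). How far such copies share a probe was not tested.

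**Figure D4:**
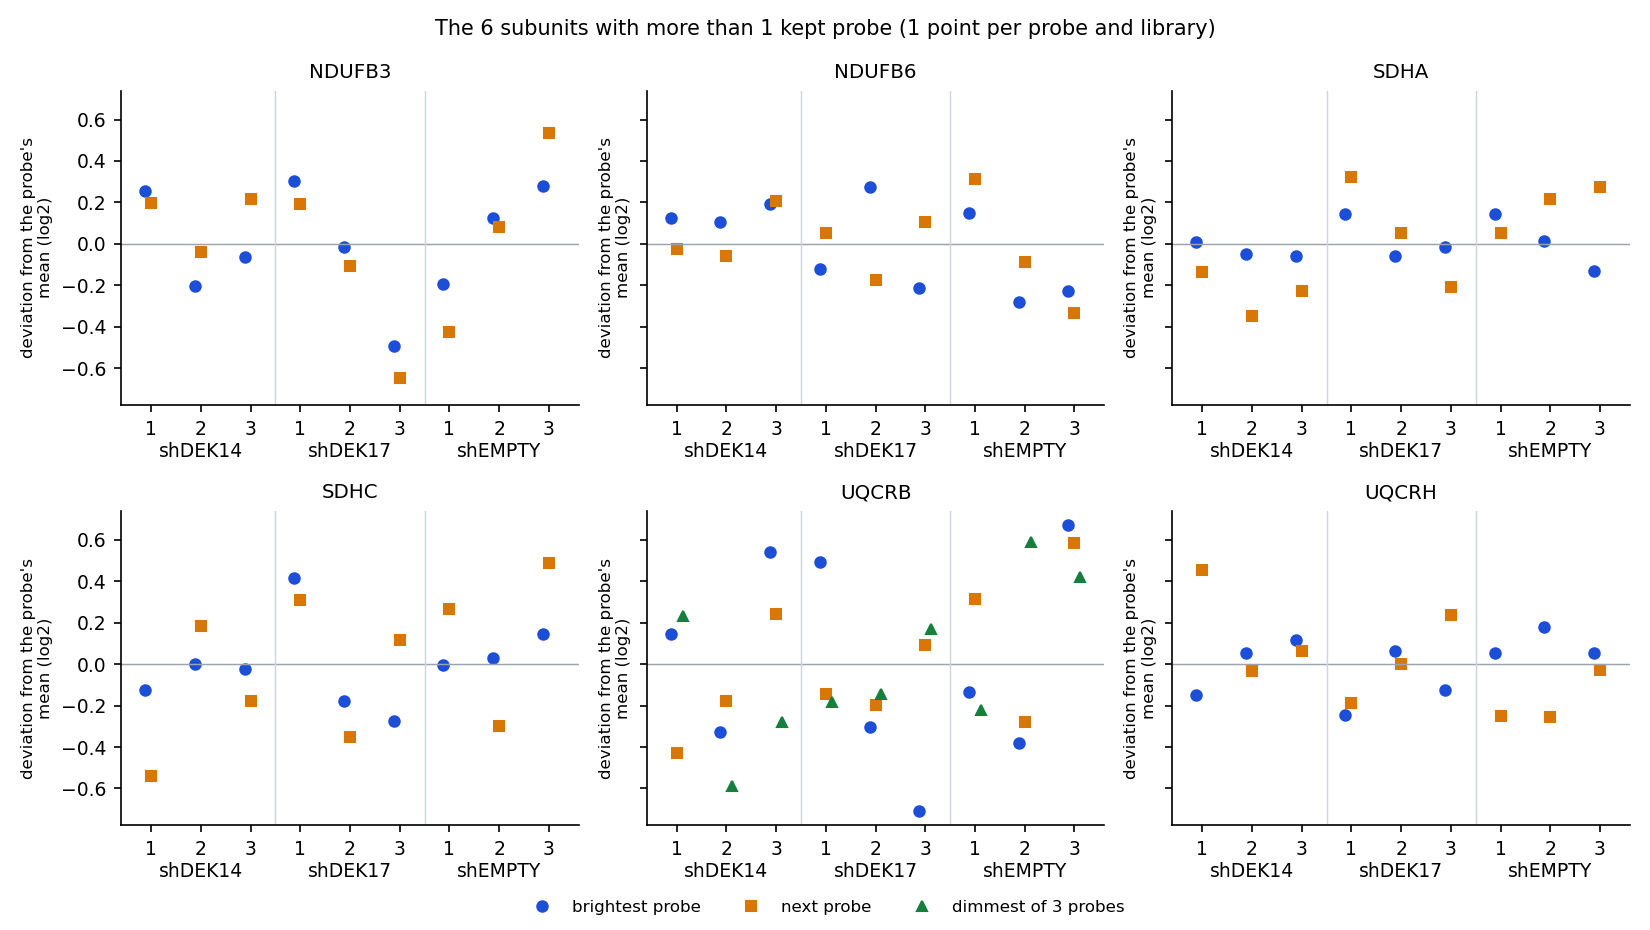
Deviation of each kept probe from its own mean over the 9 libraries (log2), by label and replicate number, for the 6 subunits with more than 1 kept probe. The 2 probes of NDUFB3 lie together in 8 of 9 libraries, whereas those of UQCRH lie on opposite sides of 0 in most libraries and the 3 of UQCRB scatter.

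The rest of the respiratory pathway was described from lists of other genes, none of which held a gene past the threshold (limma adjusted p of 0.937 or higher). The other complex I subunits were below 0 for 6 of 11, with a median of -0.057, and NDUFB4 (0.22 ± 0.19, SE) and NDUFA10 (0.15 ± 0.16), both accessory, had the lowest p among them. In complex III UQCR11 had -0.21 ± 0.26 and UQCR10 -0.090 ± 0.20, and in complex IV COX6A1 had 0.24 ± 0.16 and COX6B1, which bridges the dimer, -0.18 ± 0.18. Of 8 genes listed as isoforms restricted to certain tissues, only COX8C (-0.048 ± 0.19) and UQCRHL, the copy of UQCRH named above, were tested genes.

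Assembly factors spanned a wider range of changes than the subunits they put in place. Factors for complex I were below 0 for 14 of 18, with a median of -0.11, and ranged from -0.29 ± 0.18 for FOXRED1 to 0.54 ± 0.21 (log2, SE) for NUBPL, which delivers iron-sulfur clusters. Factors for complexes II to V were below 0 for 21 of 29, with a median of -0.11, and ranged from -0.68 ± 0.19 for COX11, a copper chaperone of complex IV, to 0.49 ± 0.17 for TMEM70, which assembles the c ring of complex V. Every shRNA-labelled library had COX11 (4.85 to 5.61, log2) below its own lowest detected value (5.70 to 5.95). COX11 thus passed the filter only through the libraries labelled shEMPTY (5.86 to 6.12), and its change compares a low signal with background. The median standard deviation within a label was 0.30 for the complex I factors and 0.22 for the others, against 0.15 for the subunits and 0.26 for all genes. The factors were also dimmer, with median levels of 8.94 and 8.54 (log2) against 11.68 for the subunits. The part of brightness in their wider range was not tested. Genes that maintain, transcribe and translate mitochondrial DNA were below 0 for 12 of 17 (median -0.091), among them the transcription factor TFB2M (-0.37 ± 0.16) and the initiation factor MTIF2 (-0.30 ± 0.17).

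Regulators of mitochondrial biogenesis were above 0 for 7 of 10, with a median of 0.11. PPRC1, a coactivator related to PGC-1alpha, had 0.35 ± 0.15 (log2, SE) and the transcription factor MYC -0.30 ± 0.14. Citric acid cycle enzymes were below 0 for 9 of 15 (median -0.013), with SUCLG2, a subunit of succinyl-CoA ligase, at -0.23 ± 0.15 and PDHB, of pyruvate dehydrogenase, at -0.22 ± 0.15. Antioxidant enzymes, catalase (CAT) among them, were above 0 for 5 of 7 (median 0.065), with the superoxide dismutase SOD2 at 0.23 ± 0.21 and the thioredoxin TXN2 at 0.13 ± 0.13. Cytosolic ribosomal proteins were below 0 for 14 of 26 (median -0.027), with RPL30 at 0.23 ± 0.14 and RPL37 at 0.29 ± 0.18. Interferon-stimulated genes were below 0 for 16 of 16 (median -1.14), with the highest level in the library labelled shEMPTY replicate 2, and HERC5 and IRF9 had -1.06 ± 0.40 and -1.41 ± 0.61. Ribosome biogenesis genes were below 0 for 14 of 18 (median -0.13), with NIP7 at -0.46 ± 0.22 and WDR12 at -0.19 ± 0.13, and of the myeloid markers CTSG had -1.37 ± 0.79 and MPO -0.38 ± 0.24.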

How the data were processed

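U937 RNA was hybridized to 9 Illumina HumanHT-12 v4 arrays, 3 per label. For 47323 probes the authors deposited the linear intensity on each array, without background correction or normalization, and a detection p-value, together with a table of the same intensities multiplied by 1 factor per array. The scanner software was not given in the sources used here. Symbols came from the platform annotation (30113 probes with 1 symbol, 8 with several, 17202 unnamed), updated through RefSeq. Intensities were processed with neqc (limma 3.58.1, R 4.3.3, offset 16), which takes background from the detection p-values and quantile-normalizes log2 values. With a detection p under 0.01 required on 3 arrays or more, 14230 probes were kept, and the one with the highest mean stood for its gene. A single fit of 3 group means without covariates gave 4 contrasts, adjusted by Benjamini-Hochberg over 8611 genes with a threshold of 0.05. The fit was tested on simulated data first.

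The members and lists were chosen with earlier results of these data known. Subunits named with full values were the 2 of lowest p, the 2 of widest range and the 1 of narrowest range in each complex, those whose labels separated, those with several kept probes, and every subunit of a complex with 5 or fewer. Of every other list, the 2 genes of lowest p were named. Alternatives covered background correction, normalization, the authors' scaled intensities, the filter, which probe stood for a gene, the replicate number as a block, variance moderation, array weights, the groups fitted, the methods' t-test and each array or replicate number left out. Leaving out the 4 libraries whose DEK contradicts the label was added after the data were seen.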

Additional observations from a re-analysis of the deposited data

How the results depend on the processing

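No subunit was called in any contrast under any setting tried. Without the 3 libraries numbered 2, other genes were called, so that counts with replicates left out lay between 0 and 1 for the average of both hairpins (MYBPH), 0 and 4 for shDEK14, 0 and 1 for shDEK17 (DEK) and 0 and 10 between hairpins. Leaving out the 4 libraries whose DEK signal goes against their label, an alternative chosen after seeing the data, gave 1 call each (DEK) for the average, shDEK14 and shDEK17. All other counts were 0, under the methods' t-test as well.

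The replicate numbers are shared by the labels. Deviations of same-numbered libraries from the means of their labels correlated between -0.43 and 0.27. These values cannot decide whether the numbers pair the libraries, since DEK contradicts 4 of the labels that set the means. With the replicate number as a block, the fit called 0 genes in all 4 contrasts. The median of the subunits stayed at -0.083, which the block cannot change, because each number occurs once under each label.

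The median change of all subunits was -0.0085 with median scaling and ranged from -0.13 to -0.012 with libraries or replicate numbers left out. Complex I ranged from -0.16 to -0.00091 in this way and complex II from -0.044 to 0.055, and complex II was at -0.14 with the mean of the kept probes. Complex IV was at 0.054 with median scaling and -0.0068 with the authors' scaled intensities, and ranged from -0.090 to -0.020. Complex III ranged from -0.14 to 0.034, which is less than its replicate spread away from -0.090.

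Of the 23 subunits followed through every setting, 12 changed sign somewhere. With median scaling COX5B turned to 0.011, NDUFA4 to 0.061 and SDHA to 0.0047, and NDUFA4 was at 0.00060 with the authors' scaled intensities. COX7A2 was at -0.0060 with array weights, and UQCRH at 0.063 with the mean of its probes. Without the 4 libraries contradicted by DEK, SDHA was at 0.0020 and UQCRC1 at 0.033. With libraries or replicate numbers left out, COX5B ranged from -0.25 to 0.046, COX7A2 from -0.14 to 0.11, NDUFA4 from -0.12 to 0.028, NDUFA6 from -0.32 to 0.039, NDUFB3 from -0.39 to 0.12, NDUFS1 from -0.33 to 0.067, SDHA from -0.085 to 0.055, SDHC from -0.21 to 0.016, UQCRB from -0.34 to 0.26 and UQCRC2 from -0.077 to 0.27. The causes were not tested.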
